A study of Rattus norvegicus with 4 samples.

Results

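To follow a pair of imprinted regions in the folded genome, contacts at Igf2-H19 and Dlk1-Meg3 were read from Hi-C matrices of primary rat Schwann cells (SCs), the glia that wrap peripheral axons. Hi-C ligates DNA ends that are neighbours in the nucleus, and each ligated pair of ends is counted as 1 contact. The members are 4 genes, Igf2, H19, Dlk1 and Meg3, with a window of 1.8 Mb around each pair, defined by position in build rn6. The Igf2-H19 window was chr1:215000001-216800000 and the Dlk1-Meg3 window was chr6:133000001-134800000. At 180 bins of 10 kb each, the windows held 360 of the 277880 bins of the numbered chromosomes and X.

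The SCs came from sciatic nerve, and their medium held 10% FBS, forskolin and heregulin-β1. They were infected for 48 h, in the presence of polybrene, with 2 viral units per cell of Lenti-AS or of Lenti-GFP, the control virus with GFP. Lenti-AS overexpresses the antisense RNA of the Egr2 promoter (Egr2-AS). By the paper, the antisense RNA was cloned into a pLVX vector with DsRed, and the control was a pLVX plasmid with AcGFP. The vectors of the groups were thus not the same apart from the antisense RNA. Each group had 2 libraries of 2000000 cells each, numbered 1 and 2 in the titles and described as independent samples. Strain, sex and age of the rats were not given in the sources used here, control cells carried virus too, and contacts hold no RNA level against which the cell type, the overexpression or the expression of the 4 genes could be checked. The p-values below measure the spread between these samples, which may be technical.

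Imprinted genes are read mainly from the chromosome of 1 parent. Igf2, a fetal growth factor, is read from the paternal chromosome, and H19, a long noncoding RNA, from the maternal one, where the insulator protein CTCF binds a control region near H19 and separates Igf2 from enhancers that both genes can use. Dlk1, a transmembrane protein of the Notch ligand family, is paternally expressed, and Meg3, a long noncoding RNA followed by microRNA and small nucleolar RNA genes, is maternally expressed. The matrices did not separate the parental chromosomes, so each value sums over both.

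RefSeq sequences of the later build GRCr8 were at hand for 3 of the 4 genes. The 250 bases before the start of Igf2 (1 of its 2 listed starts), Dlk1 and Meg3 are shown to identify the promoters of the genes described below, which were not placed in the bins of build rn6, with the capitals marking motifs chosen after the sequences had been seen. H19 is represented by miR-675, the microRNA processed from its RNA, with the seed (bases 2 to 8) in capitals.
Igf2 (chr1:207250476-207250725, minus strand): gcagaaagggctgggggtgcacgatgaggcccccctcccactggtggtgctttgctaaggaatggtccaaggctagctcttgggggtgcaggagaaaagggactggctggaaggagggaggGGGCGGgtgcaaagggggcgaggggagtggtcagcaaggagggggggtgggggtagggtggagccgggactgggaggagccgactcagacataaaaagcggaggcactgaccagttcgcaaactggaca
Dlk1 (chr6:134192347-134192596, plus strand): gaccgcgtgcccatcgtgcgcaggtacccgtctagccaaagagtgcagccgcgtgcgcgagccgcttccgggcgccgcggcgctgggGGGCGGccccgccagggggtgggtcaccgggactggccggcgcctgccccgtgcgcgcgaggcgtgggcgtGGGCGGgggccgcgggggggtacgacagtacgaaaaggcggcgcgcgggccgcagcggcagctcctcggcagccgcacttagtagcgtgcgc
Meg3 (chr6:134273806-134274055, plus strand): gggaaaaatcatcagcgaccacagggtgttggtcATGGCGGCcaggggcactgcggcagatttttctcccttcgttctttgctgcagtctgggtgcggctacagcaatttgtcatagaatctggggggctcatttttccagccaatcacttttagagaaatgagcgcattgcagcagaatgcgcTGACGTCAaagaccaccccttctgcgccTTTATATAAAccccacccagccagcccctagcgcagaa
miR-675-5p (chr1:207161800-207161821, minus strand): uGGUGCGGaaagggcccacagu
miR-675-3p (chr1:207161766-207161786, minus strand): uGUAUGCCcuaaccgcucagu
The motifs were the GC box GGGCGG, the cAMP response element TGACGTCA, the TATA box TATAAA and the YY1 core ATGGCGGC, searched on both strands. Among the 33469 RefSeq promoters of the same length, they occurred in 30.5%, 1.59%, 12.9% and 1.15%, respectively. The Dlk1 promoter held 41 CpG dinucleotides against a median of 5, and 0.980% of all promoters held as many or more. It had a GC content of 78% and 2 GC boxes. The Meg3 promoter held 10 CpG, with the cAMP response element 66 bases, the TATA box 34 bases and the YY1 core 216 bases before its start, and an overlapping TATA box on the opposite strand. The Igf2 promoter shown held 7 CpG and 1 GC box, and the other Igf2 promoter held 15 CpG and none of these motifs. A motif match is a description of these letters only.

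In RefSeq gene order, H19 is followed by Igf2, Ins2 and Th and preceded by Mrpl23 and Tnnt3, and Meg3 follows Dlk1, with Begain, Wdr25 and Wars1 before and Rtl1 after them. Without an annotation of build rn6, the genes were placed in the approximate intervals chr1:215740001-215840000 (10 bins) and chr6:133700001-133900000 (20 bins). Each interval was split at its centre into an H19 side and an Igf2 side, or a Dlk1 side and a Meg3 side, after the gene order. The neighbours were not placed in bins.

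The 4 libraries held 94956821 (Lenti-GFP replicate 1), 110770015 (Lenti-GFP replicate 2), 74811640 (Lenti-AS replicate 1) and 70488877 (Lenti-AS replicate 2) contacts, so both Lenti-AS libraries were shallower. Below, values of the 4 libraries are given in this order. Bins with few contacts were left out, apart from the exceptions named in the section on processing. This kept 160 of 180 bins in the Igf2-H19 window, 132 of 180 in the Dlk1-Meg3 window and every bin of the gene intervals. The longest unused stretches were 130 kb, at chr1:215190001-215320000 and chr6:133420001-133550000.

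To determine how compact each window was, contacts of every pair of bins 20 kb to 1.8 Mb apart were divided by the mean of all pairs of the same chromosome at the same distance in the same library (observed over expected, O/E). The Igf2-H19 window had a mean O/E of 0.785, 0.807, 0.736 and 0.735, and the Dlk1-Meg3 window of 1.76, 1.69, 1.60 and 1.58. By this mean over pairs, the Dlk1-Meg3 window was above its chromosome and the Igf2-H19 window below it. As summed contacts over summed expected contacts, which near pairs dominate, the values were 1.003, 0.998, 0.937 and 0.931 at Igf2-H19 and 1.15, 1.12, 1.08 and 1.05 at Dlk1-Meg3, so that Igf2-H19 stood at the expected level in Lenti-GFP and Dlk1-Meg3 less far above it. From here on, O/E of a region or distance band is this ratio of sums, unless the mean over pairs is named. Among 1410 tiles of the same length over the genome, whose median was 0.920, 26.4% had a lower mean O/E than the Igf2-H19 window and 94.9% a lower one than the Dlk1-Meg3 window.

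**Figure D1:**
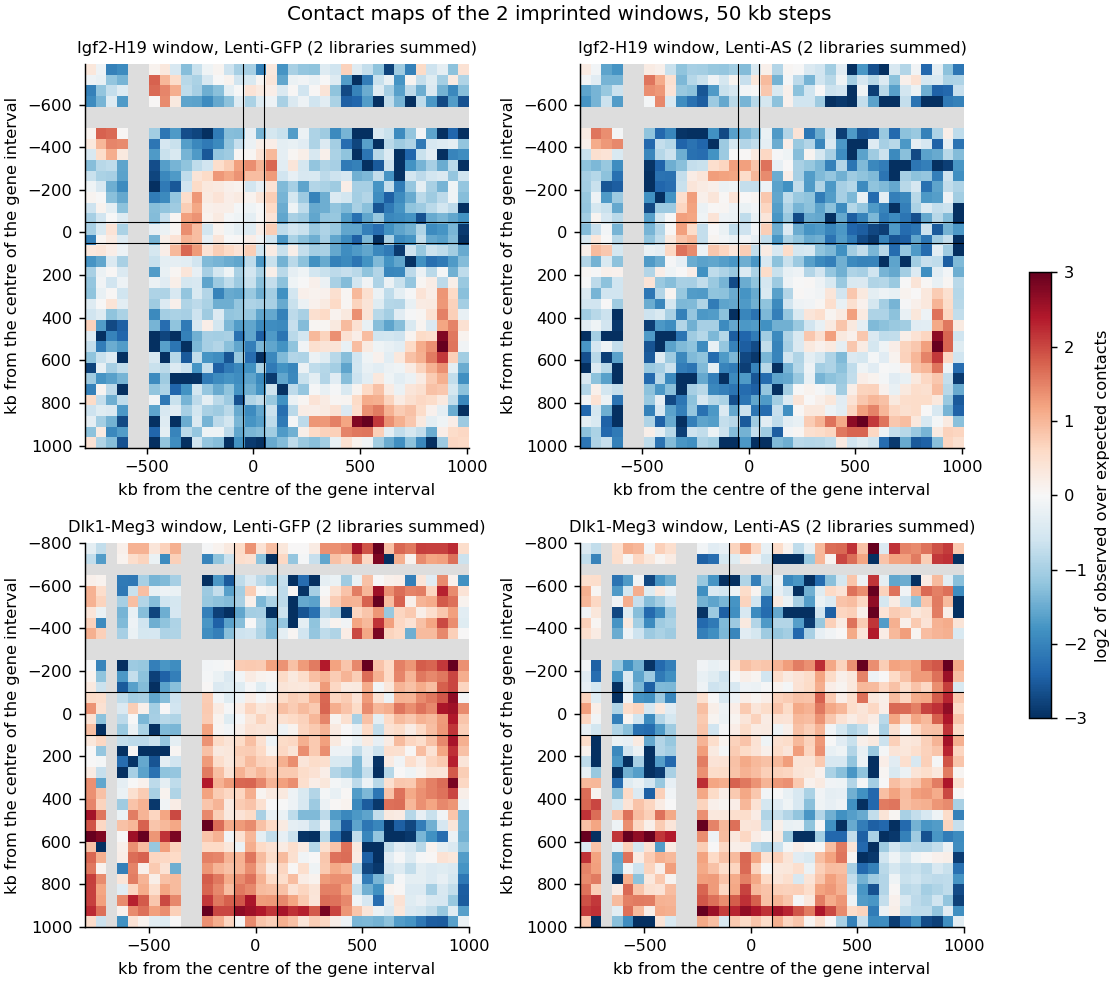
O/E contacts on a log2 colour scale in steps of 50 kb for the Igf2-H19 window (above) and the Dlk1-Meg3 window (below), with the sum of the 2 Lenti-GFP libraries on the left and of the 2 Lenti-AS libraries on the right. Both axes give the distance in kb from the centre of the gene interval, grey steps have no used bins, and steps with 0 contacts are drawn at the low end of the scale; the far corners of the Dlk1-Meg3 maps are above expected, while those of the Igf2-H19 maps are below.

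The 2 windows differed in how O/E depended on distance. At 20 to 100 kb, O/E of Igf2-H19 (mean of the libraries) was 1.05 in Lenti-GFP and 0.981 in Lenti-AS, and that of Dlk1-Meg3 was 0.878 and 0.830. At 510 to 1000 kb, Igf2-H19 stood at 0.635 and 0.574, and Dlk1-Meg3 at 1.96 and 1.77. At 1010 to 1800 kb, Igf2-H19 reached 0.497 and 0.428, a level below which 28.6% of the tiles lay, and Dlk1-Meg3 reached 2.71 and 2.52, a level below which 94.5% lay. From the nearest to the farthest band, O/E thus went down at Igf2-H19 and up at Dlk1-Meg3 in both groups. The fall at Igf2-H19 was not steady, with 1.08 and 1.00 at 210 to 500 kb. The median of the tiles also fell between these bands, from 0.994 to 0.746.

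**Figure D2:**
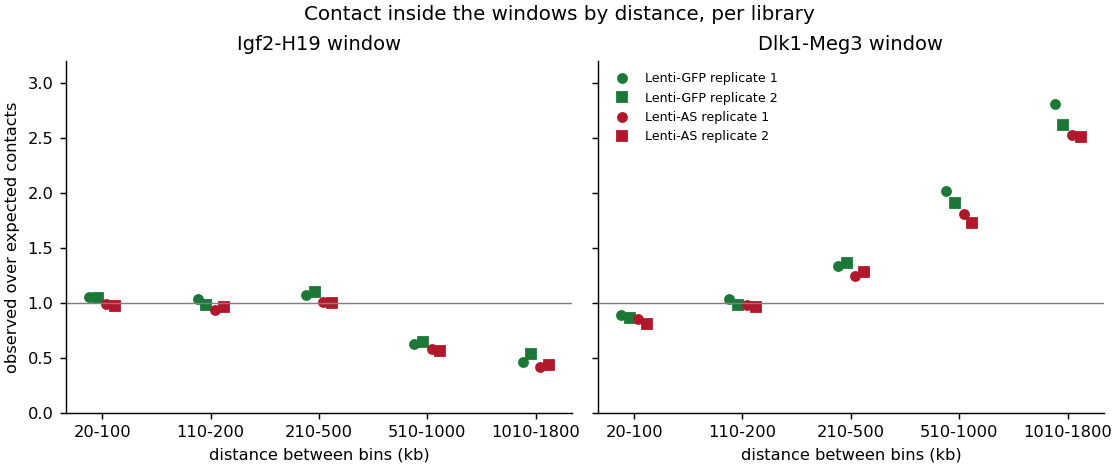
O/E inside each window (summed contacts over summed expected contacts, vertical axis, no unit) by distance band in kb (horizontal axis), with a point for each library and a grey line at 1. From the nearest to the farthest band the Lenti-GFP mean falls from 1.05 to 0.497 at Igf2-H19 and rises from 0.878 to 2.71 at Dlk1-Meg3.

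The windows also divided their contacts differently between near, far and trans partners. Trans contacts, those with other chromosomes, were 16.9% (Lenti-GFP) and 17.9% (Lenti-AS) of all those of Igf2-H19, and 19.2% and 20.4% of the Dlk1-Meg3 contacts, with a tile median of 17.8%. Contacts at 50 kb to 2 Mb, the range in which loops were sought, made up 23.0% and 22.1% at Igf2-H19 and 31.4% and 30.0% at Dlk1-Meg3. The difference between the groups was -1.35 percentage points at Dlk1-Meg3, and 2.13% of the tiles had a lower difference. At Igf2-H19 it was -0.875 percentage points, and 13.9% of the tiles had a lower difference.

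To locate the domains that hold the genes, an insulation score was computed for each bin as the log2 mean balanced contact across it within 200 kb, relative to its chromosome, so that a low score marks few contacts across the bin. A local minimum counted as a domain edge from a prominence of 0.2 upwards. The Igf2-H19 window had 7, 5, 9 and 6 edges and the Dlk1-Meg3 window 5, 5, 5 and 5. The genome held 5.81 to 6.07 per 1.8 Mb of used bins in the 4 libraries. Only 160 bins were used at Igf2-H19 and 132 at Dlk1-Meg3, so the window counts are not on the scale of this rate. At Dlk1-Meg3 the same 5 edges, matched within 1 bin, were found in all 4 libraries, 1 of them beside a gap in the scores described below. At Igf2-H19, 4 of the 10 edges found in any library were found in all 4. The group means of edges had a two-sided exact permutation p of at least 0.333, the smallest that 2 libraries against 2 can give.

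**Figure D3:**
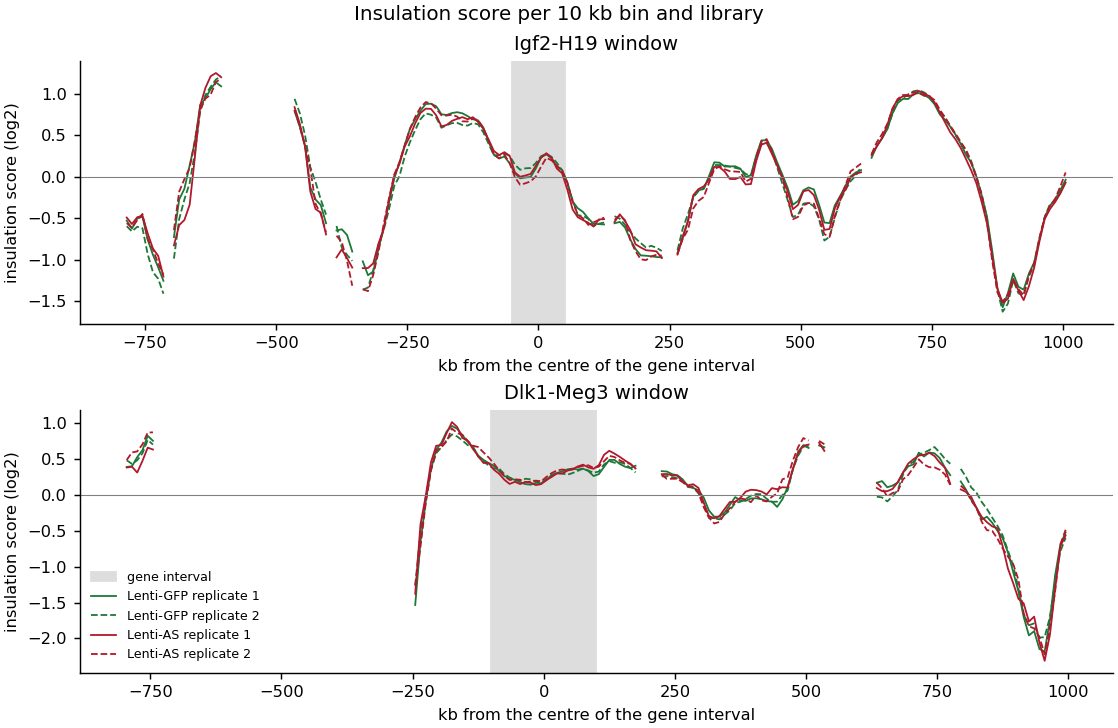
Insulation score (log2, vertical axis) of 10 kb bins against the distance in kb from the centre of the gene interval (horizontal axis), Igf2-H19 above and Dlk1-Meg3 below, with a line for each of the 4 libraries and the gene interval shaded. The lines nearly coincide, with Pearson's r between libraries from 0.985 to 0.993 across bins, and the deepest minima reach -1.63 at Igf2-H19 and -2.31 at Dlk1-Meg3.

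H19 and Igf2 lay in a domain of 560, 570, 570 and 530 kb. Its left edge was at chr1:215450001 or chr1:215460001, beside an unused bin, and its right edge at chr1:216020001 in 3 libraries and at chr1:215990001 in Lenti-AS replicate 2. Dlk1 and Meg3 lay in a domain of 570, 580, 570 and 570 kb, from chr6:133550001, the first bin after an unused stretch of 130 kb, to chr6:134120001 or chr6:134130001. No bin between -745 and -245 kb from the centre of the gene interval had a score, and this left edge was the first scored bin after that gap. Its position, and with it the size of the domain, thus depends on missing scores. The edges inside the gene intervals, given next, were passed over for these sizes. So measured, the domains were of nearly the same size at both loci and in both groups. The left end at Dlk1-Meg3 and, in 3 libraries, the right end at Igf2-H19 lay at gaps in the scores.

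Within each gene interval a shallow edge was found. On the H19 side, the bin at chr1:215750001 scored -0.02, 0.08, 0.00 and -0.10 and was an edge in 3 libraries, all but Lenti-GFP replicate 2, with a prominence of 0.28 to 0.32. On the Dlk1 side, the bin at chr6:133780001 scored 0.17, 0.19, 0.14 and 0.20 and was an edge in all 4 libraries, with a prominence of 0.30 to 0.48. The 2 edges that bound each gene domain had prominences of at least 0.997, above those of the edges inside the gene intervals. The left edge at Dlk1-Meg3 had no scored bin beside it on the left, so a rise next to it on that side was not measured. The strongest minima of the windows lay away from the genes, at chr1:216670001 (-1.57, -1.63, -1.52 and -1.51) and at chr6:134750001 (-2.18, -1.98, -2.31 and -2.22).

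The mean insulation score of the H19 side was 0.02, 0.12, 0.05 and -0.05, and that of the Igf2 side was 0.19, 0.20, 0.18 and 0.15. The Dlk1 side had 0.23, 0.25, 0.20 and 0.24 and the Meg3 side 0.32, 0.30, 0.33 and 0.35. From low to high, the order was H19, Igf2, Dlk1 and Meg3 in every library, with H19 below Igf2 and Dlk1 below Meg3. Over the libraries, the ranges of Igf2 and Dlk1, neighbours in this order, met at 0.20, although Dlk1 was above Igf2 within each library. The order was not tested.

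To determine how the genes of each pair contact each other, contacts between both sides of the gene interval were summed. H19 and Igf2 shared 235, 258, 150 and 123 contacts, or O/E 1.09, 1.04, 0.904 and 0.787. Dlk1 and Meg3 shared 598, 631, 460 and 437 contacts, or O/E 1.27, 1.15, 1.26 and 1.26. The H19-Igf2 values were lower in Lenti-AS without overlap, as was the mean O/E over pairs of 38.5% of all tiles of 1.8 Mb (the share for intervals of this size was not tested). The log2 difference was -0.33 (exact permutation p = 0.333), while with balanced contacts, which divide out the coverage of each bin, the difference was -0.08, and with the interval moved by 50 kb it was -0.40 to the left and 0.01 to the right. For Dlk1-Meg3, the difference was 0.06, and 0.03 with balanced contacts. Contact between H19 and Igf2 was thus above the level of the chromosome at the same distance in Lenti-GFP and below it in Lenti-AS with raw counts, and contact between Dlk1 and Meg3 was above it in all 4 libraries. With balanced contacts these positions changed, to 1.15, 1.16, 1.11 and 1.07 for H19-Igf2, above the level in all 4 libraries, and to 0.938, 0.879, 0.936 and 0.914 for Dlk1-Meg3, below it in all 4.

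**Figure D4:**
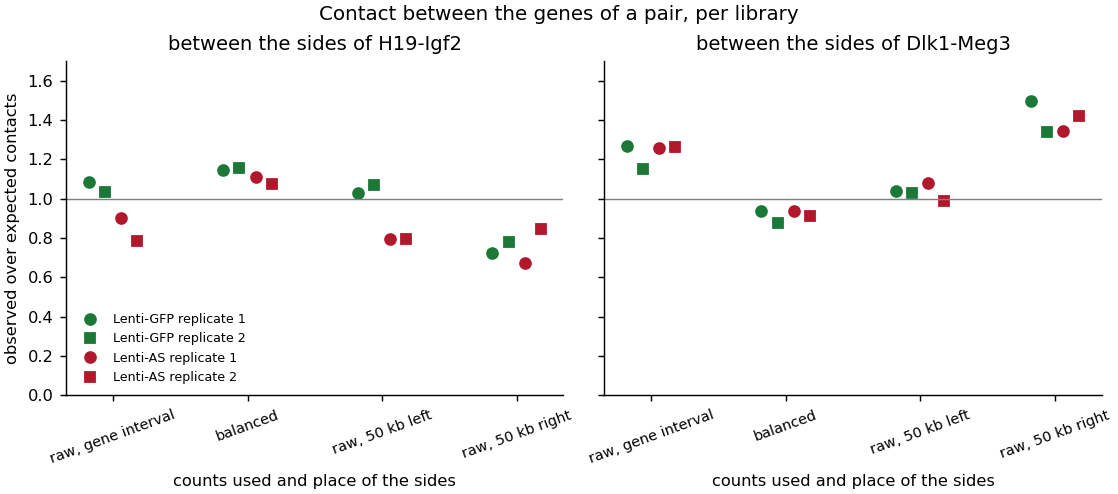
O/E contact between the sides of each gene interval (vertical axis, no unit) in the 4 libraries, for raw counts, for balanced contacts and with the interval moved by 50 kb to the left or right. The gap between the groups at H19-Igf2 is seen with raw counts (0.787 to 0.904 in Lenti-AS against 1.04 to 1.09 in Lenti-GFP) and is smaller or absent with balanced contacts and after the move to the right.

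The contacts of each gene were then followed across its window in steps of 50 kb, with raw counts over expected. Bin coverage was not divided out of these profiles, and its part in their levels was not tested. The highest O/E of the H19 side was with chr1:215450001-215500000, at the left edge of its domain, with 121, 117, 89 and 73 contacts and O/E 3.32, 2.78, 3.24 and 2.83. The next step to the right stood at 2.64, 2.43, 2.14 and 2.15. On the other flank, the H19 side reached 1.71, 1.62, 1.98 and 1.38 with chr1:215850001-215900000. From the Igf2 side, the contact with the step at the left domain edge was lower, at 1.5, 1.96, 1.42 and 1.55. In every library, the H19 side thus contacted this step more than the Igf2 side did, relative to distance.

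The profiles of Dlk1 and Meg3 stayed above expected over most of the window. The highest O/E of the Dlk1 side was with chr6:134700001-134750000, beside the strongest insulation minimum of the window, with 105, 108, 63 and 71 contacts and O/E 6.52, 5.79, 5.18 and 6.12. The Meg3 side reached 4.72, 4.89, 5.23 and 4.56 with the same step, from 85, 103, 72 and 60 contacts. A further peak at the step chr6:134100001-134150000, which holds the right domain edge, gave 3.31, 3.35, 3.23 and 3.12 from Dlk1 and 2.35, 2.39, 2.19 and 2.35 from Meg3. With the left domain edge at chr6:133550001-133600000, Meg3 stood at 1.91, 2.03, 1.7 and 1.8.

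Of the 34 steps of the H19 profile, 5 were above expected in all 4 libraries and 23 below. Of the 34 steps of Igf2, 2 were above and 24 below. Dlk1 was above expected at 21 of 26 steps and below at 2, and Meg3 was above at 17 of 26 and below at 3.

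**Figure D5:**
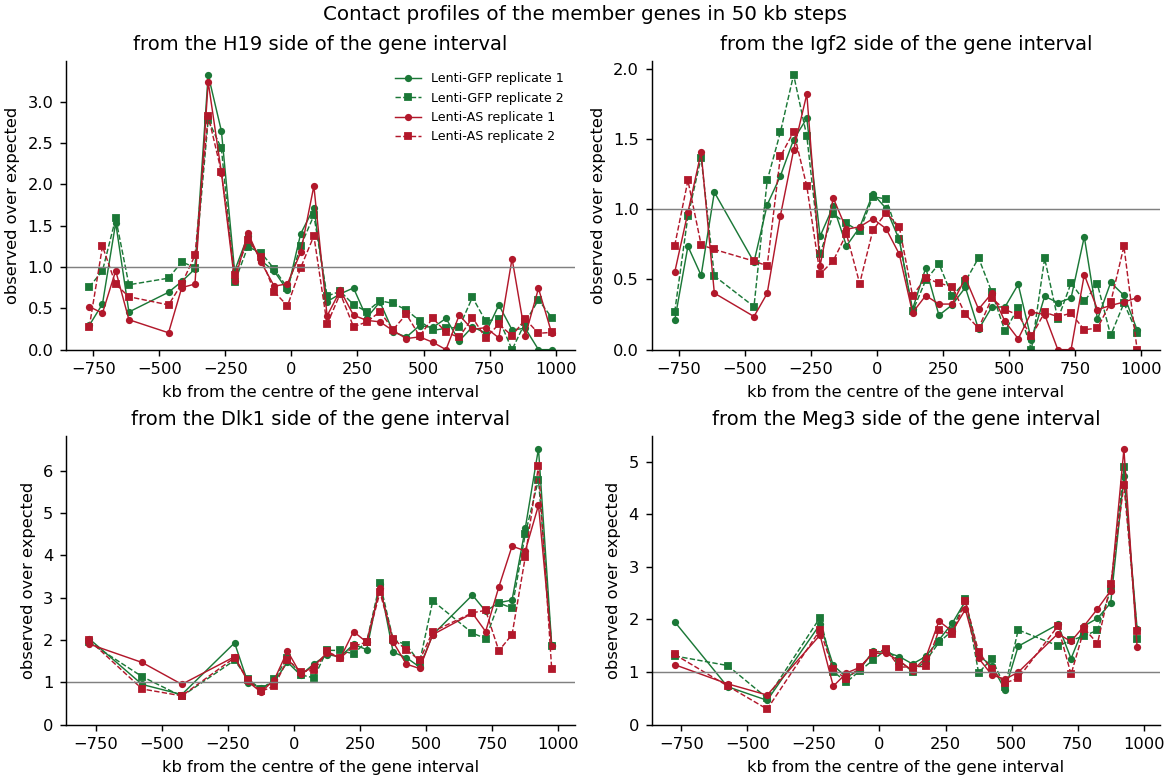
O/E contact from raw counts (vertical axis, no unit) of the H19, Igf2, Dlk1 and Meg3 sides with steps of 50 kb, against the distance in kb from the centre of the gene interval (horizontal axis), with a line for each library. The H19 profile peaks near the left domain edge at 2.78 to 3.32, and the Dlk1 profile peaks near the right end of the window at 5.18 to 6.52, in both groups.

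To find single loops, pairs of 10 kb bins 50 kb to 2 Mb apart with more contacts than a negative binomial background allowed (q of at most 0.05) were called in each library. Loops with an end in the Igf2-H19 window numbered 45, 44, 40 and 42, and in the Dlk1-Meg3 window 161, 189, 106 and 113. Over the 245649 used bins of the genome, 89099, 103815, 69780 and 66141 loops were called, also fewer in both Lenti-AS libraries. At equal depth, after thinning, the numbers were 33, 36, 41 and 43 for Igf2-H19 and 112, 104, 104 and 116 for Dlk1-Meg3, so the order of the groups at the full depth was not kept. Of the 91 loops called in any library at Igf2-H19, 14 (15.4%) were called in all 4, against 15 of 414 (3.62%) at Dlk1-Meg3 and 9.30% genome-wide. The median span was 280 kb at Igf2-H19 and 1185 kb at Dlk1-Meg3, and both ends lay in the window for 90 and 201 loops, respectively.

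No loop joined the H19 side with the Igf2 side or the Dlk1 side with the Meg3 side in any library, although pairs under 50 kb were not searched. Loops with an end in the gene interval numbered 4, 3, 8 and 6 at Igf2-H19 and 9, 17, 9 and 10 at Dlk1-Meg3. On the H19 side, 1 loop was called in all 4 libraries, from chr1:215740001 to chr1:215500001, 240 kb to the left and within 50 kb of the domain edge. It had 18, 18, 16 and 9 contacts and an O/E of 9.57 ± 0.956 in Lenti-GFP and 9.61 ± 3.41 in Lenti-AS (mean ± SD, n = 2). The loop of the Igf2-H19 window with the most contacts joined chr1:216340001 and chr1:216660001, at and beside domain edges far from the genes, with 51, 55, 38 and 35 contacts and an O/E of 37.1 and 37.8. At Dlk1-Meg3, a loop from chr6:133560001, at the left domain edge, to chr6:134320001 was called in all 4 libraries with 9, 12, 13 and 9 contacts.

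To determine whether Lenti-AS changed the windows as a whole, each window's share of all cis contact ends of the library (cis, within 1 chromosome) was compared. Per 1000000 ends, Igf2-H19 held 680, 668, 632 and 618, and Dlk1-Meg3 held 489, 477, 457 and 451. Both windows were lower in both Lenti-AS libraries, by 7.31% and 5.94% of the Lenti-GFP mean, and the groups did not overlap (exact permutation p = 0.333, the smallest possible). A lower share without overlap was also found for 34.0% of the tiles genome-wide, so that direction alone did not set the windows apart. The log2 difference was -0.11 at Igf2-H19 and -0.088 at Dlk1-Meg3, and 7.16% and 10.3% of the tiles were lower, respectively.

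The mean O/E given above was also lower in Lenti-AS in both windows, by a log2 difference of -0.11 at Igf2-H19 and -0.12 at Dlk1-Meg3, which with balanced contacts became -0.01 and -0.02. The groups did not overlap in either window, and 38.5% of the tiles were likewise lower in Lenti-AS without overlap. A lower log2 difference of the mean O/E than at Igf2-H19 was found for 9.29% of the tiles, and than at Dlk1-Meg3 for 8.37%. The cis share of the H19 side was 20.6, 19.6, 17.8 and 16.3 per 1000000, a log2 difference of -0.24, and that of the Igf2 side was 18.6, 18.5, 17.4 and 16.2, a difference of -0.14. The Dlk1 side held 49.5, 49.6, 49.4 and 49.6 and the Meg3 side 51, 48.4, 48.5 and 47.3 per 1000000. At the H19, Igf2 and Meg3 sides the lowest value was that of Lenti-AS replicate 2, and how often intervals of this size differ as much over the genome was not tested. The part of the lower coverage of the window bins in the lower contacts was not tested further than by balancing and by the offset below.

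To test single places, contacts of pairs of 100 kb bins were compared with the quasi-likelihood test of edgeR over all 311256 pairs of the genome, with the contacts at each distance in a library as its scale. These pairs took all 10 kb bins, also those left out above. At an adjusted p below 0.05, 0.328% of all pairs differed, 0.232% lower in Lenti-AS. At Igf2-H19 2 of 183 pairs did and at Dlk1-Meg3 1 of 238 did, and all 3 were lower in Lenti-AS. The first joined chr1:215100001-215200000 and chr1:215400001-215500000, with 119, 149, 64 and 53 contacts (log2 difference -0.67, edgeR adjusted p = 0.0159), so both Lenti-AS libraries were below both Lenti-GFP libraries also per 1000000 contacts, at 0.804 ± 0.0732 against 1.30 ± 0.0650 (mean ± SD, n = 2). The second joined chr1:214700001-214800000 and chr1:215100001-215200000, with 61, 66, 26 and 18 contacts (log2 difference -0.997, edgeR adjusted p = 0.0206). The last joined the neighbours chr6:134500001-134600000 and chr6:134600001-134700000, with 368, 419, 226 and 207 contacts (log2 difference -0.35, edgeR adjusted p = 0.0432).

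None of the 3 pairs held a gene interval. Both pairs of Igf2-H19 shared the bin chr1:215100001-215200000, whose right end lies in the unused stretch given above. When the offset also held the cis contacts of both bins, their log2 differences were -0.26, -0.49 and -0.02 and 0 pairs of the windows passed. The calls were also lost when any 1 library was left out, a fit with fewer samples, although the log2 differences stayed at -0.77 to -0.58, -1.25 to -0.79 and -0.37 to -0.33.

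At an unadjusted p below 0.05, 29 pairs of Igf2-H19 (26 lower) and 21 of Dlk1-Meg3 (20 lower) differed, against 8.85% of all pairs of the genome, 4.69% lower. The median log2 difference was -0.19 at Igf2-H19 and -0.12 at Dlk1-Meg3. With the cis contacts of both bins in the offset, the direction turned, to 2 lower and 17 higher at Igf2-H19 and 2 lower and 10 higher at Dlk1-Meg3. With this offset 3.74% of all pairs of the genome were lower and 3.29% higher. The cis contacts of a bin include the tested pairs and were lower in Lenti-AS over both windows. This offset by itself therefore raises the differences, and whether the turn goes beyond that was not tested.

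Among the pairs that held a gene interval, 0 of 35 at Igf2-H19 and 0 of 50 at Dlk1-Meg3 passed the adjusted threshold of edgeR. The unadjusted p was below 0.05 for 7 (6 lower and 1 higher in Lenti-AS) and 3 (all lower), against 8.85% of all pairs of the genome, 4.69% lower. DESeq2 called 0 pairs of either window and gave no adjusted p for 365 of the 421. The lowest p at Igf2-H19 belonged to chr1:215700001-215800000, which holds the H19 side and the first bin of the Igf2 side, with chr1:216100001-216200000, beyond the right domain edge. It had 42, 58, 18 and 19 contacts (log2 difference -0.90, edgeR adjusted p = 0.110), both Lenti-AS values being lower. In the other direction, chr1:215800001-215900000, which holds most of the Igf2 side, and its right neighbour chr1:215900001-216000000 had 320, 420, 301 and 308 contacts, with a log2 difference of 0.23 after scaling (edgeR adjusted p = 0.287). At Dlk1-Meg3, the lowest adjusted p of a pair with a gene interval was 0.367 (edgeR).

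For a test of the profiles, contacts of each bin were summed to its left and right at 20 to 200 kb and 200 kb to 2 Mb and compared with edgeR, in which 0.119% of 957412 sums of the genome passed, 0.0755% lower in Lenti-AS. In each window 1 sum passed, of 634 at Igf2-H19 and 495 at Dlk1-Meg3, both lower in Lenti-AS. The bin at chr1:215020001 had 63, 83, 29 and 23 contacts with bins 200 kb to 2 Mb to its left (log2 difference -0.96, edgeR adjusted p = 0.0336). The bin at chr6:134650001 had 82, 111, 36 and 41 contacts at 20 to 200 kb to its left (log2 difference -0.81, edgeR adjusted p = 0.0320). Neither bin held a member gene, and both calls were lost with DESeq2 (log2 difference -0.96 and -0.81) and when any 1 library was left out (-1.10 to -0.84 and -0.95 to -0.68).

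At an unadjusted p below 0.05, 95 sums differed at Igf2-H19 (88 lower) and 69 at Dlk1-Meg3 (64 lower), while 9.80% of the sums of the genome did, 5.22% lower. The member genes held 40 and 80 sums, of which 0 passed in edgeR and 7 and 10 had an unadjusted p below 0.05. Of the 40 sums of H19 and Igf2, 37 were lower in Lenti-AS, with a median log2 difference of -0.23, against -0.15 over the window and -0.0053 over the genome. Sums of neighbouring bins share contacts, and the coverage of the bins was not in the offset. Of the 80 sums of Dlk1 and Meg3, 46 were lower, with a median of -0.02, against -0.10 over the window. The lowest p among them belonged to the Dlk1 side, where the bin at chr6:133710001 had 30, 44, 11 and 11 contacts at 200 kb to 2 Mb to its left (log2 difference -1.21, edgeR adjusted p = 0.0922). Its Lenti-AS values were both lower, but the sum did not pass.

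Single loops were compared with edgeR over all 204748 loops called in any library, of which 0.0122% passed. In the windows 0 of 91 and 0 of 414 loops passed, in a test that found the fewest changes of all the tests on simulated data, while an unadjusted p below 0.05 was found for 4 and 10, and for 0 and 0 in DESeq2, where 0.463% of all loops had one. Genome-wide, 3.54% of the loops had such an unadjusted p in edgeR, of all loops 2.02% with higher and 1.52% with lower contact in Lenti-AS. The 4 loops of Igf2-H19 were split into 2 higher and 2 lower in Lenti-AS, and the 10 of Dlk1-Meg3 into 3 higher and 7 lower.

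Of the 12 loops of Igf2-H19 with an end in the gene interval, 1 had an unadjusted edgeR p below 0.05, against 3.54% of all loops. It joined chr1:215490001 to chr1:215750001, on the H19 side, with 7, 7, 14 and 7 contacts (log2 difference 1.09, edgeR adjusted p = 0.948). At Dlk1-Meg3, 4 of the 41 loops with an end in the gene interval had such a p, and Lenti-AS was above Lenti-GFP in 2 of these 4 and below it in 2. On the Dlk1 side, the loop from chr6:133730001 to chr6:134320001 had 0, 1, 4 and 5 contacts and that from chr6:133790001 to the same bin had 5, 8, 1 and 0, both with an edgeR adjusted p of 0.948. Only loops called in at least 1 library were tested, so the direction of loops with so few contacts was fixed by the group in which they were called. Another loop of the Dlk1 side, from chr6:133720001 to chr6:134710001, had 1, 3, 6 and 5 contacts, and a loop of the Meg3 side, from chr6:133880001 to chr6:134720001, had 9, 5, 1 and 1.

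Insulation was compared with limma over 239555 bins, of which 0.00167% passed. In the windows 0 of 160 and 0 of 117 bins passed, with 7 (5 lower and 2 higher in Lenti-AS) and 14 (11 lower and 3 higher) at an unadjusted p below 0.05, against 5.54% genome-wide, 3.04% lower and 2.51% higher. At Igf2-H19, the bin with the lowest p was chr1:215380001, with scores of -0.56, -0.46, -0.70 and -0.67 (limma adjusted p = 0.892). At Dlk1-Meg3 it was chr6:134240001, with -0.17, -0.09, 0.08 and 0.02 (limma adjusted p = 0.892), which was lower in Lenti-AS, not higher, with raw counts over expected or across 500 kb. The lowest p among its 11 lower bins was at chr6:134760001, with -1.74, -1.70, -1.95 and -1.85 (limma adjusted p = 0.892). By group means, all 10 bins of H19 and Igf2 were lower in Lenti-AS, with a median difference of -0.06, and 12 of the 20 bins of Dlk1 and Meg3 were higher, and none of them had an unadjusted p below 0.05. Neighbouring bins share most of the contacts scored, and each of the 5 bins of the H19 side scored higher in Lenti-AS replicate 1 than in Lenti-GFP replicate 1. With raw counts over expected in place of balanced contacts, 4 bins of Igf2-H19 and 5 of Dlk1-Meg3 passed in limma, all lower in Lenti-AS, while 1.52% of all bins passed in either direction.

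To look beyond the home chromosome, trans contacts of each bin were compared with edgeR, in which 0.113% of 257848 bins passed. This test took all bins that passed edgeR's filter on low counts, also some left out above. In the windows 0 of 166 and 0 of 139 bins passed, in DESeq2 as well, with 12 (9 lower and 3 higher in Lenti-AS) and 6 (5 lower and 1 higher) at an unadjusted p below 0.05, against 9.03% genome-wide, 4.56% lower and 4.47% higher. At Igf2-H19 the lowest p was that of chr1:215580001, with 94, 93, 50 and 38 trans contacts (log2 difference -0.62, edgeR adjusted p = 0.20). At Dlk1-Meg3 it was that of chr6:134260001, with 29, 46, 37 and 49 (log2 difference 0.66 after scaling, edgeR adjusted p = 0.318). Among the gene bins, chr6:133870001 on the Meg3 side had the lowest p, with 97, 114, 71 and 42 trans contacts (log2 difference -0.43, edgeR adjusted p = 0.400). The bins of the 4 genes therefore had no trans difference that passed.

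Trans contacts were also divided by chromosome. Relative to the share of each chromosome in all trans contacts, Igf2-H19 contacted chromosome 2 at 1.57, 1.56, 1.48 and 1.55, which was 1.31 times the value of chromosome 1 as a whole (1.27 to 1.33 in the libraries). Dlk1-Meg3 contacted chromosome 2 at a mean of 1.15, second to chromosome 5 at 1.18. Both windows were lowest with chromosome 20, at a mean of 0.660 for Igf2-H19 and 0.694 for Dlk1-Meg3, and chromosomes 1 and 6 as a whole were also below 1 with it, at 0.747 and 0.906. Relative to the whole of chromosome 1, Igf2-H19 was lowest with chromosome 19, at 0.785 against 1.03. Relative to the whole of chromosome 6, Dlk1-Meg3 was lowest with chromosome 20, at 0.766 times its value. All 4 libraries were above 1 for 6 chromosomes and below 1 for 13 at Igf2-H19, and above for 6 and below for 8 at Dlk1-Meg3, of 20. Chromosomes 2, 4, 5 and X were among those above 1 for both windows. Chromosome 1 as a whole was also above 1 with them, at a mean of 1.17, 1.04, 1.04 and 1.07. Chromosome 6 as a whole stood at 1.06, 1.02, 1.02 and 0.992, so it was below 1 with X. The means of the windows in the same order were 1.54, 1.16, 1.06 and 1.16 at Igf2-H19. At Dlk1-Meg3 they were 1.15, 1.05, 1.18 and 1.10. Each was above the mean of its home chromosome as a whole.

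Contacts that joined both windows numbered 16, 16, 12 and 11. Relative to the product of the trans contacts of both windows, they stood at 2.20, 1.98, 2.22 and 2.12, and the groups overlapped. Summed over the libraries, 55 contacts were counted where 25.9 were expected, a ratio of 2.12 with a 95% exact Poisson interval of 1.60 to 2.76 that covers counting error only. Among 10349 pairs of tiles on chromosomes 1 and 6 the median ratio was 1.07, and 5.75% were at or above that of the windows.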

How the data were processed

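Hi-C was measured in 4 libraries, 2 per group. The authors mapped the read pairs to rn6 with HiC-Pro and deposited 1 matrix of raw contact counts per library, at 10 kb; their merged, balanced matrices were not used. Depth was 70488877 to 110770015 contacts. Bins whose cis contacts over all libraries were under 0.25 of the median bin were left out. Exceptions were the 100 kb pairs, the trans contacts and the division of window contacts between near, far and trans partners. Counts were tested with edgeR 4.0.16 (quasi-likelihood, group as the only term, log offset from contacts at the same distance, or TMM for trans contacts, mean count of at least 10 for 100 kb pairs and profile sums) and insulation scores with limma 3.58.1, with Benjamini-Hochberg adjustment over the whole genome; single values had exact permutation tests. The loop and domain callers of the study were replaced by a negative binomial regression and the insulation score. The scripts were tested on simulated data, in which the loop test recovered fewer of the changed features than the other tests did. Alternatives were DESeq2 1.42.0, other offsets, filters, balancing, window sizes and thresholds, the replicate number as a block, and leaving out each library. The members and lists were chosen with earlier results of these data known. Features that hold a member gene were counted, and of all features of a window up to 3 per test and direction, those with the lowest p, were candidates for naming and were run under the alternatives. A CTCF motif search and values for neighbouring genes needed an rn6 annotation and were not done here. Groups came from the sample titles.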

Additional observations from a re-analysis of the deposited data

How the results depend on the processing

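Of the 3 changed 100 kb pairs, 0 passed with the cis contacts of both bins in the offset, 0 in DESeq2 and 0 to 0 when 1 library was left out. DESeq2 gave no adjusted p for 365 of the 421 pairs of the windows, 2 of the 3 among them. Of the 2 changed profile sums, 0 passed in DESeq2 and 0 to 0 when 1 library was left out. The count of changed loops, trans bins and insulation bins in the windows was 0 to 0 without any 1 library, whereas 9 insulation bins passed with raw counts over expected. The replicate numbers correlated at r = 0.04 genome-wide, -0.06 at Igf2-H19 and -0.12 at Dlk1-Meg3 over the deviations of 100 kb pairs, so the numbers did not establish pairs of libraries; with the replicate number as a block, 3 pairs, 2 profile sums and 0 loops, trans bins and insulation bins passed in the windows, as without it.

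The log2 difference of O/E inside Igf2-H19 (-0.11) was -0.14 with the expectation of the whole genome, -0.0073 with balanced contacts and -0.13 to -0.093 without 1 library. That inside Dlk1-Meg3 (-0.12) was -0.020 with balanced contacts and -0.15 to -0.09 without 1 library. Between H19 and Igf2 (-0.33), it was -0.076 with balanced contacts, 0.014 with the interval moved to the right (an alternative added after seeing the data) and -0.43 to -0.23 without 1 library. Between Dlk1 and Meg3 (0.06), it was -0.038 after the same move and -0.0067 to 0.13 without 1 library. For contacts between the windows (0.06), the range was -0.02 to 0.14. The difference in edges at Igf2-H19 (1.5) was -0.5 with a window of 500 kb and 0 to 3 without 1 library, and that at Dlk1-Meg3 (0) was -1 and 0.5 at prominences of 0.1 and 0.3 and 0 to 0 without 1 library.

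The log2 difference in the number of loops at Igf2-H19 (-0.12) was -0.054 at q of at most 0.01, 0.28 after thinning, 0.38 per 1000000 contacts (added after seeing the data) and -0.15 to -0.08 without 1 library, and at Dlk1-Meg3 (-0.68) it was 0.026 after thinning, -0.17 per 1000000 contacts and -0.79 to -0.56 without 1 library. Named features were picked by the lowest p in each direction and refitted on the same libraries. A kept direction is therefore no independent check of a difference. Values of alternatives that gave no adjusted p, 10 in all, were not counted. Of 467 values of 60 named features under alternatives, 460 kept their direction. The 7 that reversed were insulation differences, at chr1:215070001 (-0.057 with raw counts over expected) and, across 500 kb and with raw counts over expected, at chr6:134230001 (-0.012 and -0.051), chr6:134240001 (-0.0028 and -0.013) and chr6:134250001 (-0.0016 and -0.0057). The cause of these shifts was not tested, other than depth for loops. Loops rest on single 10 kb pairs, many with about 10 contacts or fewer, and with 2 libraries a group the exact tests cannot go below p = 0.333. Gene bins are approximate. The differences of O/E inside the windows and of the changed 100 kb pairs were smaller with balanced contacts or with bin contacts in the offset. The part of bin coverage in the 50 kb profiles, the profile sums and the trans contacts was not tested.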
